A study of Mus musculus with 4 samples.

Results

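Cells carrying the transcript of periaxin (*Prx*), a protein of myelinating Schwann cells, were picked out of Xenium in situ counts of mouse vagal ganglia and described across the other genes of the probe panel. A cell was taken as a Prx cell when it held at least 10 transcript counts in all, at least 2 counts of *Prx*, no more than 1 count over *Snap25*, *Tubb3*, *Scg2* and *Gap43* together, and no more than 1 count over *Car3* and *Pck1* together. This rule gave 460 Prx cells of 9785 segmented cells, or of 4488 cells with at least 10 counts. The ganglia came from adult male C57BL/6 mice (C57BL/6J in the methods) with no genetic change named in the labels, treated through the nose with *A. alternata*, an allergenic mould, 4 times (on days 0, 3, 6 and 9, each time with 50 μL of an extract at 25 μg/mL), and were taken 16 hours after the last dose. They were fixed in 4% paraformaldehyde, and 5-μm paraffin slices were measured. All 3 sections were of treated mice, so every comparison is between classes of cells inside the same sections and none concerns the treatment. The labels and methods do not say whether the sections came from separate animals. The p-values cover counting error and the spread between these 3 sections only, and the fit shares information on that spread between genes.

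Schwann cells wrap the axons of the peripheral nervous system. Those that myelinate spiral their membrane around a single axon, and the compacted layers are held together by a small set of membrane proteins of which peripheral myelin protein 22 (*Pmp22*) is one. Periaxin sits in the plasma membrane outside the compact layers, where it links the myelin sheath through a dystroglycan complex to the surrounding basal lamina. Losses or changes of *PRX*, *PMP22* and *NDRG1* are known causes of inherited demyelinating neuropathy in humans. In vagal ganglia, such cells lie along the axons between the neuron somata, while satellite glia lie around the somata themselves.

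The Prx cells numbered 107, 131 and 222 in sections 1, 2 and 3. They were 8.31% of the cells with at least 10 counts in section 1 (95% Clopper-Pearson interval 6.86 to 9.96), 10.0% in section 2 (8.47 to 11.8) and 11.7% in section 3 (10.3 to 13.2), a mean of 10.0% ± 1.69 (SD, n = 3). The other cells with at least 10 counts, 4028 in all, fell by the same limits into 1355 other non-neuronal cells (which met every limit but held 0 or 1 counts of *Prx*), 908 cells over the limit of *Car3* and *Pck1*, and 1765 neuron-like cells over the limit of the neuron genes. Prx cells were shallow. They held a median of 14 counts (10 to 51), against 13 in other non-neuronal cells and 67 in neuron-like cells, and only 84 of them (18.3%) reached 20 counts. Summed per section, Prx cells gave 1588, 2107 and 3592 counts, of which 1294, 1740 and 2944 were of genes outside the rule. No cell barcode was shared by sections (0 shared). Decoding controls made 8 of the events beside 7287 counts in Prx cells (0.110%), against 0.0867% in other non-neuronal cells and 0.0282% in all other cells.

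The cells were selected on their counts of the 7 genes of the rule and on their total, and these values are given as a description. *Prx* had a median of 2 counts per Prx cell, with a highest value of 9, and made up a median of 17.4% of a cell's counts. Exactly 2 counts were held by 257 Prx cells (55.9%), 3 counts by 117, 4 or 5 by 72 and 6 or more by 14. In the whole sections 847 cells held at least 2 *Prx* counts, and the Prx cells were 54.3% of these. The other limits removed 325 such cells for having under 10 counts and 62 for their neuron genes, and none for *Car3* and *Pck1* (0 cells). Among the Prx cells, 37 held 1 count of a neuron gene of the rule and 3 held 1 count of *Car3*, while *Pck1* had 0 counts. The 7 genes of the rule were left out of all totals and tests that follow, so that levels are CPM, counts scaled to one fixed total of the counts of the 463 other genes. Counts of different genes also depend on the probes made for each, so levels were compared between classes of cells and not between genes.

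The promoter of *Prx* is shown because the gene defines the cells, and a promoter of *Pmp22* because that gene led their other transcripts. Both are taken from RefSeq on GRCm38.p6 and run 5′ to 3′ over 250 bases before and 50 after an annotated start. *Prx* lies on the plus strand of chromosome 7 (window chr7:27499074-27499373) and *Pmp22* on the plus strand of chromosome 11 (window chr11:63128732-63129031, the first of 4 start sites in the table). Capitals mark the core motif GCGTGGG of the EGR factors or its reverse complement CCCACGC, searched because EGR2 is a known regulator of peripheral myelin genes.
Prx: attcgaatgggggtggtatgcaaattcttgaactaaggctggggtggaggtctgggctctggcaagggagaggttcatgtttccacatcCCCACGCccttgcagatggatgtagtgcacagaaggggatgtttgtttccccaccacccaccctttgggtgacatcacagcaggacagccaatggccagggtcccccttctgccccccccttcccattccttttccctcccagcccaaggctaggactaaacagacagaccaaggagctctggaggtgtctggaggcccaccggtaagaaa
Pmp22: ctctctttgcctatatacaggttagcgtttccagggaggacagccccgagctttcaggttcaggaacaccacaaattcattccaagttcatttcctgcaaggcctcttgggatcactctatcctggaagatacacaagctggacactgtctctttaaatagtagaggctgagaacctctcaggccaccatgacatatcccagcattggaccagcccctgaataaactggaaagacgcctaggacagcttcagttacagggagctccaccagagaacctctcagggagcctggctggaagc
The *Prx* window held the motif 1 time, on the minus strand, and none of the 4 windows of *Pmp22* held it (0 matches). On either strand it was found in 5.04% of the 32817 promoters in the table and in 5.69% of the 439 promoters of panel genes. The core motif ACAAAG of the SOX factors (reverse complement CTTTGT) was searched as well, because SOX10 is a known regulator of Schwann cells. It was in none of these windows of *Prx* and *Pmp22* (0 matches), against 18.7% of all promoters in the table and 18.5% of those of panel genes. A match in these letters is a description of the sequence only.

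Myelin transcripts were higher in Prx cells than in other non-neuronal cells. *Pmp22* had 129057, 114368 and 131793 CPM in the Prx cells of sections 1, 2 and 3, against 32396, 31496 and 34759 CPM in other non-neuronal cells. Its lowest section in Prx cells was thus more than 3 times its highest section in the compared cells. *Ndrg1*, which encodes a cytoplasmic protein that Schwann cells need to maintain myelin, had 92736, 85632 and 90353 CPM in Prx cells and 47881, 42182 and 40738 CPM in other non-neuronal cells. *Kcna1*, the voltage-gated potassium channel subunit Kv1.1, had 54869, 45977 and 56386 CPM in Prx cells, against 26487, 26997 and 27767 CPM in other non-neuronal cells. *Cryab*, the small heat shock protein αB-crystallin that is abundant in myelinating Schwann cells, averaged 28388 ± 2424 CPM in Prx cells and 11633 ± 969 CPM in other non-neuronal cells (SD, n = 3 each). For none of these 4 genes did the sections of the 2 classes overlap, as was so for 65% of all genes tested, and the 4 included *Pmp22* and *Kcna1*, the markers named beside *Prx* for myelinating Schwann cells.

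Fitted with edgeR (quasi-likelihood test on sums per section, with the section as a block), 42 of the 80 genes with enough counts differed between Prx cells and other non-neuronal cells at an adjusted p under 0.05 (52.5%). Of these 16 were higher in Prx cells (20%) and 26 lower (32.5%). All 4 genes of the peripheral myelin and Schwann cell list were among the 16. *Pmp22* was higher by 2.19 on the log2 scale (SE 0.07, adjusted p = 2.42e-72), *Cryab* by 1.56 (SE 0.20, adjusted p = 5.07e-12), *Ndrg1* by 1.32 (SE 0.07, adjusted p = 1.42e-39) and *Kcna1* by 1.22 (SE 0.11, adjusted p = 9.51e-21). The list's median of 1.44 stood beside a median of -0.15 over all 80 genes. All 4 calls were kept under every alternative run. Without section 3, which holds the most Prx cells, only 12 genes were called in all, and all 12 were among the 42. Without section 2 the count was 26, of which 25 were among the 42. With the sums scaled by library size alone in place of TMM factors, 12 genes were higher and 37 lower, and the median of all genes was -0.61. The fitted differences of this comparison thus generally stand above those of the printed CPM, which are not scaled by TMM.

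**Figure D1:**
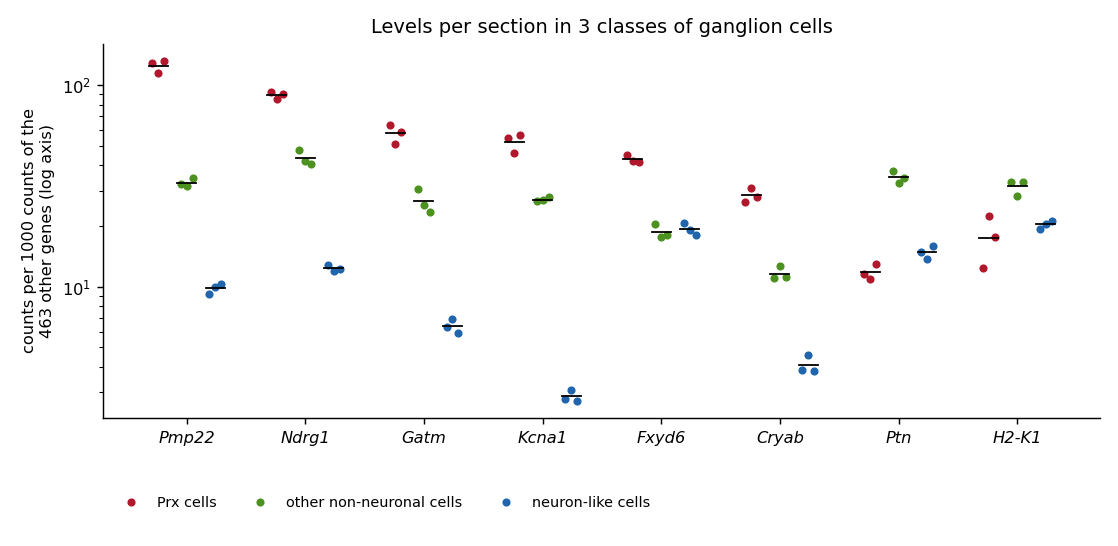
Levels of 8 genes in counts per 1000 counts of the 463 other genes (log axis), in Prx cells (left of each trio), other non-neuronal cells and neuron-like cells, with 1 point per section and a line at the mean of 3 sections. From *Pmp22* to *Cryab* all Prx points lie above those of the other classes, whereas for *Ptn* and *H2-K1* the other non-neuronal cells lie highest.

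Beside the myelin genes, single genes of differing roles were higher in Prx cells. *Gatm*, the enzyme that carries out the first step of creatine synthesis, had 63369, 51149 and 58424 CPM in Prx cells, against 30562, 25497 and 23409 CPM in other non-neuronal cells, a log2 difference of 1.41 (SE 0.11, adjusted p = 1.33e-26). *Fxyd6* encodes a small regulator of the sodium pump. It averaged 42852 ± 1708 CPM in Prx cells and 18679 ± 1484 CPM in other non-neuronal cells, higher by 1.47 on the log2 scale (SE 0.14, adjusted p = 2.37e-19). A second member of that family, *Fxyd1* (phospholemman), was higher by 1.08 (SE 0.31, adjusted p = 0.00162). Its call was lost under 5 alternatives, including without section 2 and without section 3. *Ldhb*, the B subunit of lactate dehydrogenase, averaged 19845 ± 2719 CPM in Prx cells and 10392 ± 753 CPM in other non-neuronal cells (log2 difference 1.22, adjusted p = 3.10e-06). *Stmn1* (stathmin, a regulator of microtubules that the neuron list holds) averaged 38326 ± 6337 CPM in Prx cells, against 19124 ± 1629 CPM in other non-neuronal cells, and was higher by 1.28 (SE 0.14, adjusted p = 1.26e-14). The calls of *Gatm* and *Fxyd6* were kept under all alternatives, and those of *Ldhb* and *Stmn1* were lost only among cells with at least 20 counts. *Aif1l*, an actin-binding protein, had 45 counts in Prx cells and was higher by 1.54 (SE 0.35, adjusted p = 6.40e-05). That call was lost without section 3, with limma and with each cell weighted alike. *Aif1l* met the filter in Prx cells but not in the compared cells alone, so its p-value and call are a description. *Timp3*, an inhibitor of matrix metalloproteinases, was higher by 0.74 (SE 0.13, adjusted p = 5.15e-07). Its call was lost under 6 alternatives, including without section 2 and without section 3. *Fxyd1* and *Timp3* were named after their values were seen.

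**Figure D2:**
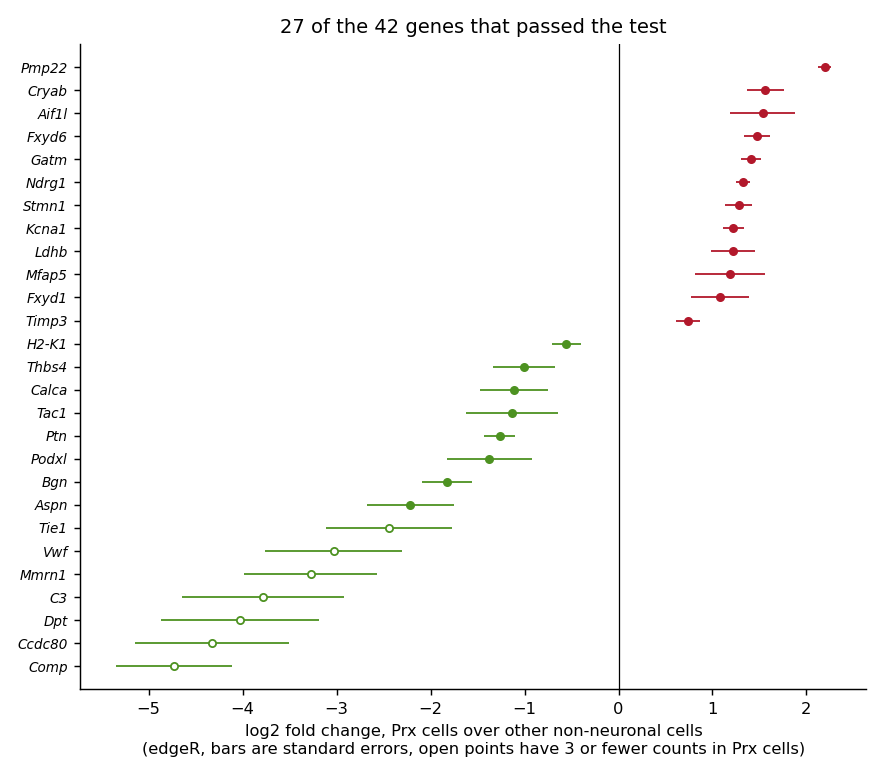
Log2 fold change (Prx cells over other non-neuronal cells) of 27 of the 42 genes that passed the edgeR test, with standard errors as bars. Red points are higher in Prx cells, green points lower, and open points mark genes with 3 or fewer counts in Prx cells, whose fitted value rests on those few counts. *Pmp22* stands at the top with 2.19.

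Most of the connective tissue genes tested were lower in Prx cells. Of the 14 fibroblast and matrix genes tested against other non-neuronal cells, 11 were lower and 1 higher (the background was 32.5% lower and 20% higher), with a median log2 difference of -1.80 beside -0.15 over all genes. A gene could pass the filter through the compared cells alone, so the count is given as a description. *Bgn* (biglycan, a matrix proteoglycan), named after its values were seen, had 5410, 6897 and 3736 CPM in Prx cells and 25265, 18185 and 22801 CPM in other non-neuronal cells, and was lower by 1.83 on the log2 scale (SE 0.27, adjusted p = 1.17e-09) under every alternative run. *Comp*, a cartilage matrix protein, had 2 counts in Prx cells against 233, a ratio of levels of 0.0289 with a counting interval of 0.00348 to 0.105 (adjusted p = 1.70e-11). *Dpt* (dermatopontin, a matrix protein) had 1 count against 76 (ratio 0.0443, interval 0.00111 to 0.254, adjusted p = 1.69e-05) and *Ccdc80* had 1 against 93 (ratio 0.0362, interval 0.000906 to 0.207, adjusted p = 2.18e-06). *Comp*, *Dpt* and *Ccdc80*, with 2 or fewer counts in Prx cells, could only be called lower, so their p-values and calls are a description. The call of *Comp* was kept under all alternatives. That of *Ccdc80* was lost without section 3, and those of *Ccdc80* and *Dpt* with limma and with each cell weighted alike. *Aspn* (asporin, a small leucine-rich proteoglycan) had 9 counts in Prx cells and was lower by 2.21 (SE 0.46, adjusted p = 1.69e-05). It too passed the filter through the compared cells alone and could only be called lower, so that p-value and call are a description. Its call was lost without section 3, with limma and with each cell weighted alike. *Lum* (lumican, of the same protein family) passed in neither direction, with 6882 ± 82 CPM in Prx cells and 9317 ± 1291 CPM in other non-neuronal cells (adjusted p = 0.753). The summed level of the 16 listed genes was 3.46 to 5.80% of counts in Prx cells, against 12.3 to 13.8% in other non-neuronal cells, and none of the 16 was at 0 in Prx cells.

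The member that was higher, *Mfap5* (a protein of elastic microfibrils), was high in 1 section. It had 11592 CPM in the Prx cells of section 1 and 4598 and 2717 CPM in those of sections 2 and 3, against 3056, 4499 and 1621 CPM in other non-neuronal cells, so that the classes overlapped. Its log2 difference of 1.19 (SE 0.37, adjusted p = 0.00484) was no longer called under 9 alternatives, including without section 1 and without section 3. *Mfap5* too met the filter in Prx cells but not in the compared cells alone, so its p-value and call are a description. *Fbln5* (fibulin 5, of elastic fibres) varied likewise among Prx cells, with 9274 CPM in those of section 1 against 1724 and 1698 CPM in those of sections 2 and 3. Over the 3 sections it was called lower in Prx cells than in other non-neuronal cells. That call was lost under 4 alternatives, including without section 2 and without section 3.

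Of the 7 endothelial genes tested, 4 were lower in Prx cells and none (0) higher, with a median of -1.38, beside 32.5% lower, 20% higher and a median of -0.15 over all genes. Here too a gene could pass the filter through the compared cells alone. *Mmrn1*, *Vwf* and *Tie1*, with 3 or fewer counts in Prx cells, could then only be called lower, so the count and their p-values are a description. *Mmrn1* (multimerin, a protein of endothelial cells and platelets) had 2 counts in Prx cells against 84 in other non-neuronal cells (ratio 0.0801, interval 0.00954 to 0.298, adjusted p = 3.32e-05). *Vwf* (von Willebrand factor) had 2 against 71 (ratio 0.0948, interval 0.0113 to 0.355, adjusted p = 0.000177) and *Tie1*, an endothelial receptor kinase, 3 against 69 (ratio 0.146, interval 0.0294 to 0.446, adjusted p = 0.00107). *Podxl* (podocalyxin) had 12 counts and was lower by 1.38 (SE 0.45, adjusted p = 0.00635). It also passed the filter through the compared cells alone, so its p-value and call are a description. Without section 3 the calls of *Mmrn1*, *Vwf* and *Podxl* were lost, without section 2 those of *Vwf* and *Tie1*, and without section 1 that of *Tie1*. All 4 calls were lost with limma and with each cell weighted alike. *Cav1* (caveolin 1), which is found in many cell types, had 10141 ± 4755 CPM in Prx cells and 10349 ± 3072 CPM in other non-neuronal cells (adjusted p = 0.804). The 15 listed genes summed to 1.46 to 2.41% of counts in Prx cells and 3.73 to 5.11% in other non-neuronal cells. The compared class was thus a mixture in which fibroblast and endothelial transcripts were common, and the part of that mixture in the differences was not tested.

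No gene of the other glia list passed the test as higher in Prx cells (0 of 3 tested), and 1 was lower, which is near the 32.5% of all genes that were lower (20% were higher). *Ptn* (pleiotrophin, a secreted growth factor) had 11592, 10920 and 12908 CPM in Prx cells, against 37694, 32808 and 34556 CPM in other non-neuronal cells, and was lower by 1.27 on the log2 scale (SE 0.17, adjusted p = 3.53e-11) under every alternative. *Sox2*, a transcription factor of immature Schwann cells and satellite glia, had 7469 ± 1998 CPM in Prx cells and 6489 ± 1441 CPM in other non-neuronal cells, a difference of 0.43 with an SE of 0.33 (adjusted p = 0.262). *Chl1*, a neural adhesion molecule, had 8500 ± 2816 CPM in Prx cells and 10247 ± 1037 CPM in other non-neuronal cells, and was not called (adjusted p = 0.914). Its fitted log2 difference of 0.05 (SE 0.30) has the opposite sign to the CPM because the fit scales the sums by TMM factors (-0.40 with library size alone). The remaining 7 genes of this list had 1 to 5 counts each in Prx cells and were not tested here. Of these, *Sox9*, a transcription factor of glia, had 5 counts in Prx cells and 49 in other non-neuronal cells, and *Gfap*, a filament protein of glia, had 2 in Prx cells and 7 in other non-neuronal cells. Summed over its 10 genes, the list took 2.86 to 3.33% of counts in Prx cells and 5.72 to 5.76% in other non-neuronal cells. Most of that difference was *Ptn*, which averaged 11806 CPM in Prx cells and 35019 CPM in other non-neuronal cells. The other genes of the list were not summed apart, so the sum does not describe glia genes in general.

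The neuron list has to be read with the rule, which limited 4 neuron genes in both classes. Its 25 genes summed to 5.63 to 6.25% of counts in Prx cells, 5.37 to 6.38% in other non-neuronal cells and 34.1 to 34.7% in neuron-like cells. In Prx cells most of this was *Stmn1*. The other 24 genes (a subset chosen after the values were seen) summed to 1.39 to 2.53% in Prx cells, 3.57 to 4.54% in other non-neuronal cells and 31.0 to 31.7% in neuron-like cells. *Scg3* (secretogranin 3, of secretory granules) had 1, 11 and 11 counts in the Prx cells of sections 1, 2 and 3. The peptide genes *Calca* (calcitonin gene-related peptide) and *Tac1* (substance P) were the 2 of the neuropeptide list that could be tested, and both were lower in Prx cells (32.5% of all genes were), by 1.11 (SE 0.36, adjusted p = 0.00588) and 1.13 (SE 0.49, adjusted p = 0.0436). *Calca* had 3864, 2874 and 4755 CPM in Prx cells, against 12021, 10124 and 9627 CPM in other non-neuronal cells. The call of *Calca* was lost without section 2 and without section 3, and that of *Tac1* without any 1 of the sections. *Tac1*, with 9 counts in Prx cells, passed the filter through the compared cells alone, so its p-value and call are a description.

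*Mrgpra3*, a receptor of itch-sensing neurons, was among the 25 genes with the most counts in Prx cells. It had 4637, 5747 and 10530 CPM in the Prx cells of sections 1, 2 and 3, against 4890, 5999 and 9222 CPM in other non-neuronal cells, with section 3 highest in both. The fitted log2 difference was 0.35 (SE 0.33, adjusted p = 0.364). By CPM the gene was lower in Prx cells in 2 of 3 sections, and the fitted value also holds the TMM scaling. A transcript was seen in 44 of 460 Prx cells (9.57%) and 133 of 1355 other non-neuronal cells (9.82%), against 97 of 1765 neuron-like cells (5.50%) and 10 of 908 cells over the *Car3* and *Pck1* limit (1.10%). Median counts in these classes were 14, 13, 67 and 21. *Scn10a*, the sodium channel Nav1.8 of sensory neurons, was seen in 4.13% of Prx cells, 7.08% of other non-neuronal cells, 74.7% of neuron-like cells and 0.991% of cells over the *Car3* and *Pck1* limit.

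Immune transcripts other than *H2-K1*, which ranked 11 by count in Prx cells, were mostly sparse. *H2-K1*, a class I antigen presentation gene, had 12365, 22414 and 17663 CPM in Prx cells and 33211, 28309 and 33036 CPM in other non-neuronal cells. It was lower by 0.56 on the log2 scale (SE 0.16, adjusted p = 0.00142), a call lost without any 1 of the sections. *C3*, the central complement component, had 1 count in Prx cells against 64 (ratio 0.0526, interval 0.00131 to 0.304, adjusted p = 8.00e-05). It passed the filter through the compared cells alone and could only be called lower. The call was lost without section 1, with limma and with each cell weighted alike. The class II gene *H2-Aa* had 3578 ± 1755 CPM in Prx cells and 3381 ± 1459 CPM in other non-neuronal cells (adjusted p = 0.672). The macrophage list summed to 0.883 to 1.24% of counts in Prx cells and 1.61 to 2.14% in other non-neuronal cells, and 3 of its 13 genes were at 0 in Prx cells. *Retnla*, a gene of alternatively activated macrophages and fat, had 0 counts in Prx cells and 118 in other non-neuronal cells. Pooled over sections, that makes it at least 11.7-fold lower (with 3 counts over the class as the floor), though it was not tested in this comparison. In other non-neuronal cells it had 1834, 9561 and 5878 CPM in sections 1, 2 and 3. The floor in the Prx cells of section 1 was 2318 CPM, so that section alone does not show the gene as lower. No interleukin or chemokine gene had enough counts to be tested against other non-neuronal cells (0 tested).

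**Figure D3:**
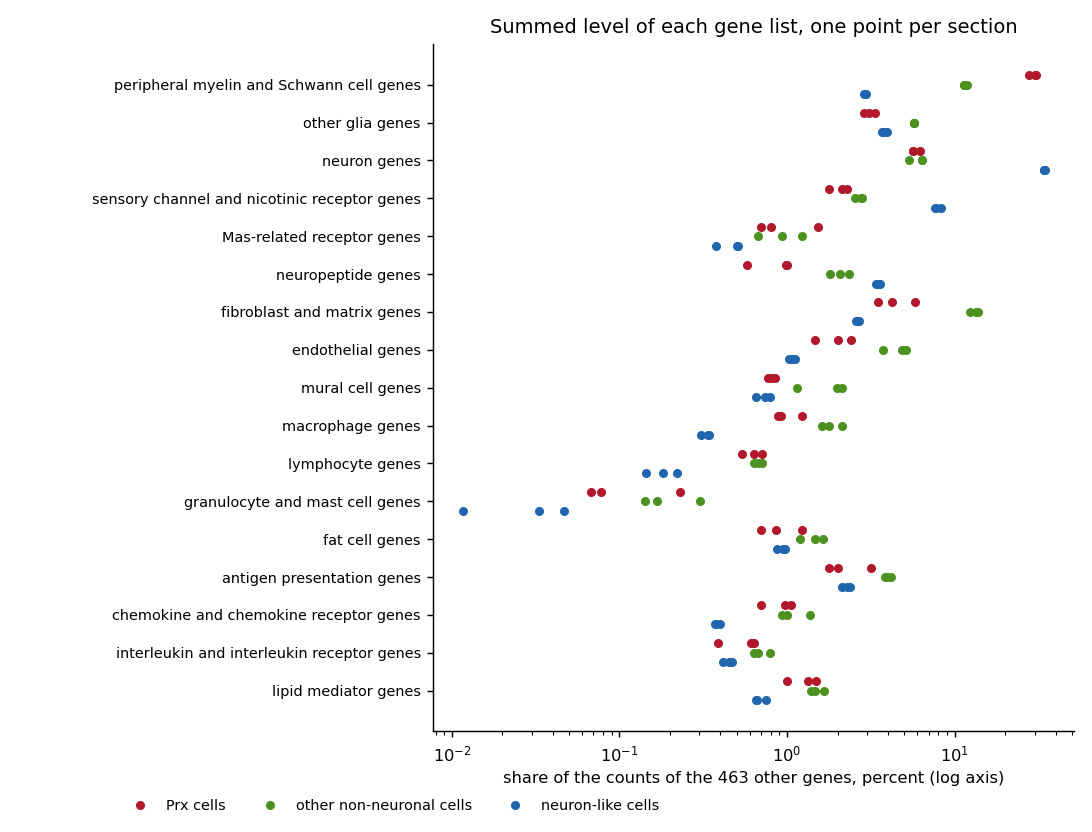
Share of the counts of the 463 other genes (percent, log axis) that each of 17 gene lists took in Prx cells (top of each trio), other non-neuronal cells and neuron-like cells, with 1 point per section. The myelin list took 27.7 to 30.6% in Prx cells and 11.3 to 11.8% in other non-neuronal cells, and the neuron list includes *Stmn1*.

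Against all other cells, neurons and the *Car3* and *Pck1* cells included, 226 genes were tested and 116 were called (51.3%), 33 higher in Prx cells (14.6%) and 83 lower (36.7%). The median log2 difference over all genes was -0.70. With library size alone the counts were 41 higher and 64 lower and the median -0.27, and without section 2 only 73 genes were called. All 4 myelin genes were higher, with a median of 2.52. *Pmp22* averaged 125073 ± 9371 CPM in Prx cells and 11755 ± 959 CPM in all other cells, higher by 2.99 on the log2 scale (SE 0.16, adjusted p = 1.01e-53). *Kcna1* followed with 52411 ± 5623 CPM in Prx cells and 5431 ± 418 CPM in all other cells (log2 difference 2.85, SE 0.17, adjusted p = 6.82e-49), and *Gatm* with a difference of 2.40 (SE 0.16, adjusted p = 1.71e-38). *Mrgpra3* was higher by 1.93 in this comparison (SE 0.35, adjusted p = 2.12e-07), with 6971 ± 3131 CPM in Prx cells and 1420 ± 516 CPM in all other cells. *Tagln* (transgelin, of smooth muscle), with 18 counts in Prx cells, was higher by 2.57 (SE 0.48, adjusted p = 7.44e-07), a call lost with each cell weighted alike. The gene could pass the filter through the Prx cells alone, so its p-value and call are a description. It averaged 2929 ± 567 CPM in Prx cells and 2149 ± 343 CPM in other non-neuronal cells. The sections of these classes overlapped, and *Tagln* was not tested between them.

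The lower genes of this comparison are a description, since the limits of the rule put neurons and *Car3* and *Pck1* cells among the compared cells. Of 24 neuron genes tested, 23 were lower and *Stmn1* was not called (log2 difference 0.13, adjusted p = 0.537). All 5 fat cell genes tested were lower. *Nnat* (neuronatin) had 0 counts in Prx cells and 2926 in all other cells, so it was at least 33.3-fold lower, and the ion channel gene *Asic3* was at least 5.43-fold lower by the same floor. The 2 comparisons share the Prx cells and part of the compared cells. *Thbs4*, a thrombospondin of the matrix, was higher against all other cells (log2 difference 0.89, adjusted p = 0.0327) and lower against other non-neuronal cells (-1.0, adjusted p = 0.00606). Its first call was lost without section 1 and without section 2, and its second without section 2 and without section 3.

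Levels also varied with the *Prx* count itself, over cells that met the other limits. *Pmp22* stood at 19502 CPM in the 994 cells with 0 counts of *Prx*, 75758 in the 361 cells with 1, 107220 in the 257 with 2, 130068 in the 117 with 3, 165085 in the 72 with 4 or 5, and 196798 in the 14 with 6 or more (means of 3 sections). The mean thus increased at every step, also when the last bin of 14 cells is left aside, but single sections did not. In section 1 the level was 147186 CPM at 3 counts and 141079 at 4 or 5, and in section 2 it was 99291 at 2 counts, 96110 at 3, 190311 at 4 or 5 and 148148 at 6 or more. *Kcna1* took another course, with 19378, 52071, 54992, 48156, 51388 and 38788 CPM over the same bins, so that it was about as high at 1 count of *Prx* as at 2 to 5. *Ndrg1* stood at 32878, 77768, 83338, 104214, 95225 and 56527 CPM. *Ptn* ran the opposite way, with 39343, 21132, 13674, 12785, 6721 and 1873 CPM. *Bgn* stood at 26563 CPM with 0 counts of *Prx* and 7781 CPM with 1. Just outside the threshold of 2, the cells with 1 count therefore already held more *Pmp22*, *Kcna1* and *Ndrg1* and less *Ptn* and *Bgn* than the cells with 0. These cells were part of the compared class, and with only the cells of 0 counts compared, 20 genes were higher in Prx cells and 26 lower. Median counts of the other genes were 13, 12, 12, 11, 13 and 14.5 per cell over the bins.

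**Figure D4:**
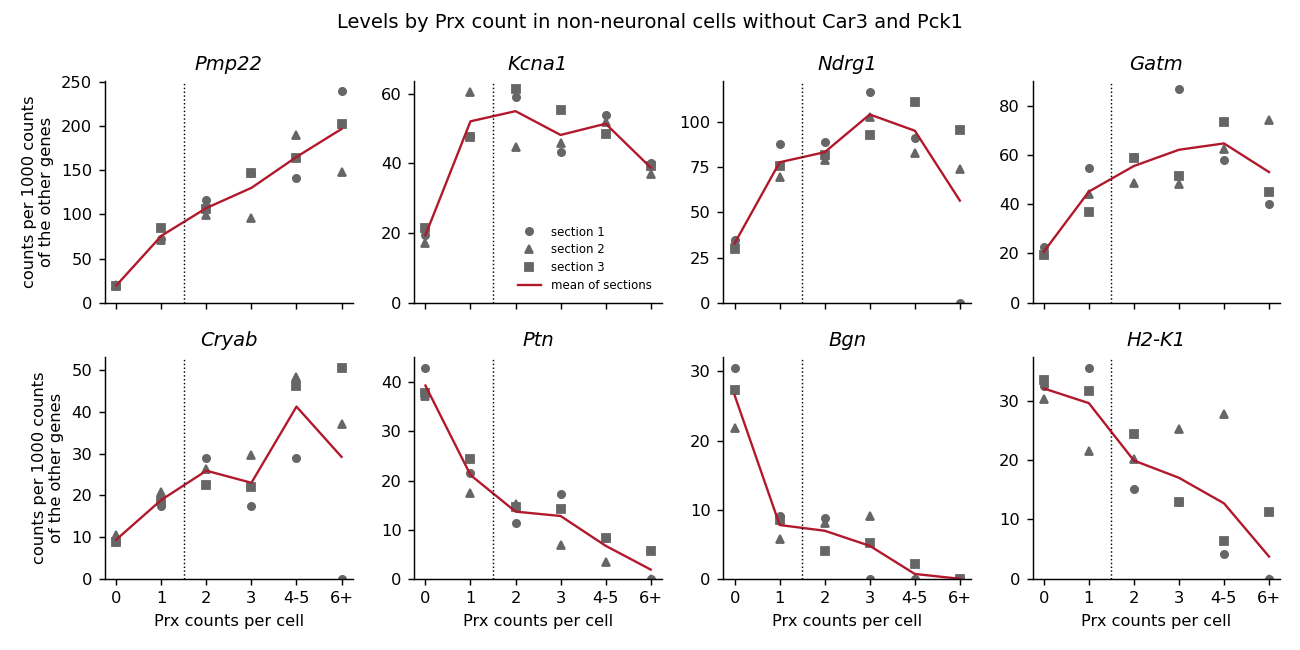
Levels of 8 genes (counts per 1000 counts of the other genes) in cells that met the other limits, by their *Prx* count, with 1 symbol per section and a line through the means. The dotted line marks the threshold of the rule, and the last bin holds 14 cells, of which 2 are in section 1. The mean of *Pmp22* climbs over all bins, whereas that of *Kcna1* stays between 38788 and 54992 CPM from 1 count of *Prx* onwards.

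Single Prx cells showed the myelin genes unevenly. *Pmp22* was seen in 307 of 460 Prx cells (66.7%, Clopper-Pearson interval 62.2 to 71.0), against 27.4% of other non-neuronal cells and 1.10% of cells over the *Car3* and *Pck1* limit. Of Prx cells, 69.6% held *Ndrg1*, 49.1% *Gatm*, 46.7% *Kcna1* and 30.4% *Cryab*. Of other non-neuronal cells, 40.6% held *Ndrg1*, 27.8% *Gatm*, 27.8% *Kcna1* and 14.5% *Cryab*. When each cell was thinned to 10 counts of the other genes, which left out 139 Prx cells and 101 other non-neuronal cells as too shallow, *Pmp22* was seen in 63.9% of Prx cells and 22.2% of other non-neuronal cells. *Kcna1* was then seen in 40.5% of Prx cells and 22.0% of other non-neuronal cells. *Sox2* was seen in 9.13% of Prx cells and 9.08% of other non-neuronal cells. Both *Pmp22* and *Kcna1* were seen in 144 Prx cells (31.3%), *Pmp22* alone in 163, *Kcna1* alone in 71 and neither in 82 (17.8%). Of the 4 myelin genes, 29 Prx cells (6.30%) held none, 90 held 1, 170 held 2, 132 held 3 and 39 held all. After thinning, 6.54% of Prx cells and 47.3% of other non-neuronal cells held none of the 4. At a median of 12 counts of other genes per cell, a gene that is not seen in a cell cannot be called absent from it. Intervals here cover counting error only.

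The same levels were taken in cells with at least 2 *Prx* counts that other limits left out. Those under 10 counts were picked by the same *Prx* limit, so their levels are a description. The limits on the neuron genes and on *Car3* and *Pck1* were not applied to them. Prx cells had 125073 ± 9371 CPM of *Pmp22*, 89574 ± 3615 of *Ndrg1*, 57648 ± 6147 of *Gatm*, 52411 ± 5623 of *Kcna1* and 11806 ± 1011 of *Ptn* (SD, n = 3 sections). In the 325 cells with at least 2 *Prx* counts but under 10 counts in all (median 7), these levels were 132797 ± 20789 CPM of *Pmp22*, 91545 ± 1941 of *Ndrg1*, 76060 ± 14277 of *Gatm*, 51374 ± 8357 of *Kcna1* and 11648 ± 3457 of *Ptn*. The 62 cells removed for their neuron genes were much deeper (median 63 counts). *Scn10a* was at 3168 ± 749 CPM in Prx cells and 45283 ± 9903 CPM in these 62 cells, where *Pmp22* was at 20722 ± 3917 CPM.

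The sections resembled each other in the leading genes. *Pmp22*, *Ndrg1*, *Gatm*, *Kcna1* and *Fxyd6* held the first 5 ranks by count in the Prx cells of every section, and the 10 leading genes made up 51.7% of the counts of the 463 genes. Of these 463 genes, 375 had a count in Prx cells, 76 had at least 10 and 88 had none, where a count of 0 over all Prx cells allows up to 502 CPM. Across the 47 genes with at least 20 counts, Spearman's rho between sections was 0.777 (sections 1 and 2), 0.668 (1 and 3) and 0.842 (2 and 3), where genes are not independent replicates. The median coefficient of variation over sections was 23.7%, beside 27.7% from counting alone. Only *Fbln5*, *Mfap5* and *Nbl1* varied by more than 2 times the counting value, and all of these had their highest level in section 1. *Nbl1*, a secreted antagonist of bone morphogenetic proteins, had 12365, 9195 and 2717 CPM.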

How the data were processed

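The deposited table holds whole-number transcript counts of 470 genes in segmented cells, made by the authors from decoded Xenium probe signals and not normalized. The genome build behind the probes is not given in the sources used here, and the submitters' processing notes name Seurat. Deposited metadata gave the counts of control events. The prefix of each cell's name gave its section (0 cells without one, 0 columns of values of no sample). Neither cell positions nor the lung were used. No doublet caller was run, and neighbouring cells can share transcripts through segmentation.

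Counts were summed per section and class without the 7 genes of the rule and tested with edgeR 4.0.16 in R 4.3.3 (quasi-likelihood, TMM, filterByExpr, section as a block, Benjamini-Hochberg adjustment at 0.05). The section is a true pairing, since each gives both sums. SEs are the log2 fold change divided by the square root of its F. The test was tried on simulated sums first. Levels are CPM of the 463 other genes with the SD over 3 sections. Intervals are Clopper-Pearson at 95%, and limits for 0 use 3 counts, for counting error only. Cells were thinned to 10 counts (seed 1).

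The members, the 17 gene lists and the tests were chosen with earlier results of these data known. Named genes were all members of the myelin and other glia lists, the 10 higher and 10 lower genes with the largest fold change against other non-neuronal cells and the 10 higher and 5 lower against all other cells (called and alike in 3 of 3 sections), and the 2 members of each other list with the highest level in Prx cells. Not all are printed. Genes of the leading ranks or printed for their section spread were named after their values were seen, as were *Bgn*, *Fxyd1*, *Timp3*, *Thbs4*, *Fbln5*, *C3* as an immune gene, *Scn10a* and *Nbl1*. Alternatives were library size alone, DESeq2 1.42.0, limma 3.58.1 on log2(CPM + 1), no filter, no block, each section left out, other limits of the rule, rule genes kept, each cell weighted alike, and compared cells with *Prx* of 0. Python 3.11.15 with pandas 2.3.3, numpy 2.4.6 and scipy 1.17.1 gave the other values. Results for some genes are not reported here.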

Additional observations from a re-analysis of the deposited data

How the results depend on the processing

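Counts of called genes moved by more than 1.5 times under these settings. Against all other cells (116 called), 63 genes were called among cells with at least 20 counts, 77 with *Prx* of 3 or more, 54 with each cell weighted alike and 59 with limma on log2(CPM + 1). Against other non-neuronal cells (42 called), the counts were 14 with at least 20 counts, 21 with each cell weighted alike and 19 with limma. With 1 section left out they ranged over 73 to 90 against all other cells and 12 to 37 against other non-neuronal cells. By direction, DESeq2 called 18 higher and 71 lower against all other cells and 13 higher and 16 lower against other non-neuronal cells, and without a filter on low counts 14 were higher and 96 lower against all other cells. Limma gave 23 higher and 36 lower against all other cells, and 10 higher and 9 lower against other non-neuronal cells. Each cell weighted alike gave 16 higher and 38 lower against all other cells, and 9 higher and 12 lower against other non-neuronal cells. At least 20 counts gave 13 higher and 50 lower, and 7 higher and 7 lower, in those comparisons, and *Prx* of 3 or more gave 17 higher and 60 lower against all other cells. With 1 section left out, 19 to 29 were higher and 54 to 65 lower against all other cells, and 8 to 17 were higher and 4 to 20 lower against other non-neuronal cells. The settings with fewer cells or sections also have fewer counts, and the other causes were not tested.

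Without the replicate block, 123 genes were called against all other cells and 41 against other non-neuronal cells, and the pairing by section moved neither count by over 1.5 times. Without it the call of *Tac1* against other non-neuronal cells was lost, and *Sox2* and *Tie1* passed against all other cells. *Cav1*, called higher against all other cells, turned to -0.54 with each cell weighted alike. No other named call changed direction. Of the 35 named calls against all other cells 13 were kept under all alternatives, and of the 27 against other non-neuronal cells 8 were. Where a call is described above as lost without a section, other alternatives could lose it too. The share of Prx cells among cells was 4.36% with *Prx* of 3 or more and 3.25% with at least 20 counts, against 10.0%. Averaged over sections, thinning gave 39.1% of Prx cells with *Kcna1* (45.7% unthinned), 61.2% with *Ndrg1* (69.5%) and 25.0% with *Cryab* (30.3%), and *Prx* of 3 or more gave 74.0% with *Ndrg1* and 33.1% with *Cryab*. Depth limits all of this, since only 76 of the 463 other genes had 10 or more counts in Prx cells.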

Other observations

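The other gene lists took small shares of counts in Prx cells, and most of their genes were not tested against other non-neuronal cells. Mural cell genes summed to 0.773 to 0.849% of counts in Prx cells and 1.14 to 2.12% in other non-neuronal cells, and of the 5 tested against all other cells, *Tagln* and *Myl9* were higher and *Rgs5* and *Ndufa4l2* lower (over all genes 14.6% were higher and 36.7% lower). The call of *Myl9*, with 13 counts in Prx cells, was lost without section 2 and without section 3, and that of *Rgs5* without section 1 and without section 3. Against other non-neuronal cells *Myl9* was not called (log2 difference -0.09, edgeR adjusted p = 0.897) and *Tagln* was not tested. Lymphocyte genes summed to 0.541 to 0.713% in Prx cells and 0.638 to 0.712% in other non-neuronal cells, with *Cd3d* and *Ctla4* at 0 in Prx cells. All other cells, neurons included, held 0.195 to 0.275%. Of the 2 lymphocyte genes tested against them, *Cd79a* was called higher (14.6% of all genes were), a call lost without any 1 of the sections. Granulocyte and mast cell genes took 0.0679 to 0.230% in Prx cells and 0.143 to 0.304% in other non-neuronal cells, and 4 of the 8 were at 0 in Prx cells. Fat cell genes took 0.696 to 1.22% in Prx cells and 1.20 to 1.63% in other non-neuronal cells.

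Chemokine genes summed to 0.696 to 1.05% of counts in Prx cells and 0.937 to 1.37% in other non-neuronal cells, interleukin genes to 0.386 to 0.632% in Prx cells and 0.632 to 0.790% in other non-neuronal cells, and lipid mediator genes to 1.0 to 1.49% in Prx cells and 1.40 to 1.65% in other non-neuronal cells. Of 6 chemokine genes tested against all other cells, *Ccl7* was called higher (14.6% of all genes were). That call was lost without section 2 and without section 3. *Ccl7*, with 8 counts in Prx cells, could pass the filter through the Prx cells alone, so the call is a description. *Lpar1*, a receptor for lysophosphatidic acid that Schwann cells are known to carry, had 6182, 10920 and 9171 CPM in Prx cells and 10187, 8624 and 6182 CPM in other non-neuronal cells (log2 difference 0.44, edgeR adjusted p = 0.222). Sensory channel genes took 1.78 to 2.28% in Prx cells and 2.55 to 2.80% in other non-neuronal cells, and *Trpm7*, a widely expressed cation channel, had 7269 ± 1000 CPM in Prx cells and 6630 ± 1172 CPM in other non-neuronal cells (adjusted p = 0.283). *Them5* was called higher against all other cells on 5 counts in Prx cells, beside 10 counts in all other cells. It passed the filter through the Prx cells alone and could only be called higher, so the call is a description. That call was lost with limma, with each cell weighted alike and without a filter on low counts.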
